A study of Mus musculus with 9 samples.

Results

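Cdkn1a, Mdm2, Aen, Btg2, Ccng1, Zmat3, Phlda3, Sfn, Sesn1 and Trp53inp1 are mouse genes known as transcriptional targets of the tumour suppressor p53. They were taken by symbol as 10 rows of a table of 54532 genes, and all 10 were among the 13915 genes with enough counts to be tested. RNA was measured in 9 libraries of 4T1, an established line from a mouse mammary tumour that serves to model triple-negative disease. The 3 Au_TCPP libraries are from cells given Au/Cu-TCPP(Fe)-PEG, labelled as consuming glutathione and as a glucose-like oxidase. The 3 Cu_TCPP libraries are from cells given Cu-TCPP(Fe)-PEG, labelled as consuming glutathione, and the 3 Control libraries are from cells in medium alone. The series gives 24 h beside the gold-bearing material and no separate time for Cu_TCPP, so a difference in time between the materials cannot be told apart from the material, and all groups were grown in high-glucose DMEM with serum and antibiotics. All libraries are of 1 cell line, doses are not given in the sources used here, and no label says that replicates were separate cultures, so p-values measure the spread between these libraries, which may be technical.

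p53 is a transcription factor that is kept low by the ubiquitin ligase Mdm2 and stabilised when DNA damage or other stress loosens that hold. It then switches on genes that stop the cell cycle, such as Cdkn1a, genes that favour apoptosis, and genes that feed back on p53 itself, Mdm2 among them. Many of these genes also answer to other transcription factors, and 4T1 cells are widely described as lacking functional p53, so the word target is used here for what these genes are known as and not for what drives them in these cells.

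Each library held 15477324 to 17494776 counts. Of the epithelial markers, Epcam, Krt8, Krt18 and Cdh1 were expressed in all libraries and Krt14 was too low to be tested. Of 4 leukocyte markers, Ptprc had at most 3 counts in any library, Cd3e at most 1 and Adgre1 none, while Cd68, which is not limited to leukocytes, summed with them to 53.3 to 75.2 CPM in Au_TCPP, 9.13 to 13.5 CPM in Cu_TCPP and 25.2 to 29.1 CPM in Control. Summed fibroblast markers reached at most 2.67 CPM and endothelial markers at most 0.333 CPM, both in Control. In Au_TCPP replicate 2, mitochondrially encoded genes took 2.37% of the counts, against 1.09 to 1.47% in the other 8 libraries, and several genes below stand apart in that library, so values without it are given where they change a call. CPM are read counts scaled to a common library size with TMM factors. Fold changes are relative to that scale: with library totals alone, the median log2 fold change over all genes was -0.43 for Au_TCPP against Control, at -0.33 for Au_TCPP against Cu_TCPP and at -0.06 for Cu_TCPP against Control. As these are bulk samples, fewer cells expressing a gene and less RNA per cell cannot be told apart.

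RefSeq promoters (GRCm38.p6), from 250 bases before to 50 after a transcription start, were found for 8 of the 10 genes, with 11 starts. The p53 decamer, the 10-base unit to which p53 binds and which reads the same on both strands, was matched without mismatch in 5 of these genes. Counted by start, it was matched in 6 of the 11 windows, with the same Aen match counted in overlapping windows. It occurs in 8.36% of the 32851 promoters in the table. A 20-base p53 site is made of 2 adjoining decamers with at most 1 mismatch in all. It was found for Cdkn1a and Ccng1, in 2 of the 11 windows, and occurs in 0.0883% of all promoters. The matches are shown because the decamer is the sequence that p53 binds and because genes whose windows hold it went different ways below. Known p53 elements of some of these genes, such as those in the first intron of Mdm2, lie outside these windows. Capitals mark the decamer or the 20-base site, and each sequence reads 5′ to 3′ on the strand of its gene.
Cdkn1a, chr17:29090896-29090957, plus strand: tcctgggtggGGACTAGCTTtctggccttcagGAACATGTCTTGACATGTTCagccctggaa
Ccng1, chr11:40755452-40755491, minus strand: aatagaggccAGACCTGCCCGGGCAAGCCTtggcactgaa
Mdm2, chr10:117710925-117710954, minus strand: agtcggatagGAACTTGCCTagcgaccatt
Aen, chr7:78895927-78895956, plus strand: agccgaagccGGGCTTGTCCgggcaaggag
Sesn1, chr10:41887256-41887285, plus strand: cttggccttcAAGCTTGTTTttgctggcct
The Cdkn1a stretch holds a separate decamer and, after it, the 20-base site. The Aen match lies in annotated exon sequence of that gene. No decamer was matched in the windows of Btg2, Phlda3 and Sfn, which says only that these letters are not there. A match is a description of the sequence and not of binding.

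With Au_TCPP, the cell cycle inhibitors of the group stood far above both other groups. Cdkn1a encodes p21, which binds cyclin-dependent kinases and the replication clamp PCNA and halts the cycle. Cdkn1a (ENSMUSG00000023067, mm10 chromosome 17, 29090976 to 29100727) had 378, 243 and 397 CPM in Au_TCPP replicates 1, 2 and 3, 29.2, 36.9 and 31.5 CPM in Cu_TCPP and 18.8, 18.6 and 17.1 CPM in Control. The 3 groups did not overlap, Au_TCPP being highest and Control lowest, and Au_TCPP replicate 2 was the lowest of its group. Cdkn1a was 18.7-fold higher in Au_TCPP than in Control (log2 fold change 4.22 ± 0.17 SE, edgeR adjusted p = 3e-10) and 10.4-fold higher than in Cu_TCPP (edgeR adjusted p = 1.3e-09). It rose 1.79-fold in Cu_TCPP against Control (log2 fold change 0.84 ± 0.17 SE, edgeR adjusted p = 0.0013). An antisense transcript named AC167363.2 shares 273 nt, or 7.68%, of the exonic bases of Cdkn1a, and whether its reads were kept apart is not stated. It averaged 3.14 CPM in Au_TCPP, 0.405 CPM in Cu_TCPP and 0.273 CPM in Control.

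Sfn encodes 14-3-3 sigma, which holds mitotic kinases and their activators in the cytoplasm and blocks entry into mitosis. Sfn (ENSMUSG00000047281, chromosome 4, 133600556 to 133602168) had 535, 206 and 596 CPM in Au_TCPP, 52.1, 61.1 and 58.5 CPM in Cu_TCPP and 13.8, 15.9 and 15.1 CPM in Control. The groups did not overlap, and the Au_TCPP group was wide because replicate 2 lay far below the other replicates. Sfn was 29.8-fold higher in Au_TCPP than in Control (log2 fold change 4.90 ± 0.40 SE, edgeR adjusted p = 9.4e-06), and 3.83-fold higher in Cu_TCPP than in Control (edgeR adjusted p = 0.0042). It was 7.79-fold higher in Au_TCPP than in Cu_TCPP (edgeR adjusted p = 0.00012). Without Au_TCPP replicate 2 the log2 fold change of Sfn in Au_TCPP against Control was 5.22.

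Btg2 encodes an antiproliferative protein that recruits the CCR4-NOT deadenylase to mRNA. Btg2 (chromosome 1, 134075170 to 134079120) had 78.6, 61.2 and 76.8 CPM in Au_TCPP, 2.27, 2.81 and 3.11 CPM in Cu_TCPP and 3.22, 3.67 and 5.37 CPM in Control. It was scarce in Control and Cu_TCPP, with 40 to 98 counts per library, and high in all 3 Au_TCPP libraries. Btg2 was 17.6-fold higher in Au_TCPP than in Control (edgeR adjusted p = 1.3e-10) and 26.4-fold higher than in Cu_TCPP (edgeR adjusted p = 5.1e-11). It was called lower in Cu_TCPP than in Control, by 0.58 ± 0.21 SE on the log2 scale (edgeR adjusted p = 0.039). That call ended in 8 of 19 alternatives, among them leaving out Control replicate 2 (adjusted p = 0.053) or 3 (0.25), Cu_TCPP replicate 1 (0.16) or 2 (0.09), or Au_TCPP replicate 1 (0.053).

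Ccng1 encodes cyclin G1, which works with protein phosphatase 2A on Mdm2 in a feedback on p53. Ccng1 had 63.0, 86.7 and 55.6 CPM in Au_TCPP, 78.1, 63.3 and 73.7 CPM in Cu_TCPP and 61.1, 59.6 and 57.7 CPM in Control. The Au_TCPP libraries overlapped both other groups, with replicate 2 the highest of all 9 libraries, while Cu_TCPP and Control did not overlap. No comparison called it, and the 95% interval of the log2 fold change was -0.08 to 0.49 for Au_TCPP against Control and -0.02 to 0.55 for Cu_TCPP against Control (edgeR adjusted p = 0.19 and 0.12). Without Au_TCPP replicate 2 the difference between Au_TCPP and Control was -0.03, and Ccng1 was then called higher in Cu_TCPP than in Control (0.28, edgeR adjusted p = 0.0058) and lower in Au_TCPP than in Cu_TCPP (-0.31, edgeR adjusted p = 0.0053). Without Au_TCPP replicate 3 it was called higher in Au_TCPP than in Control (0.30, edgeR adjusted p = 0.047). Ccng1 carries a 20-base p53 site in its promoter window as Cdkn1a does, and the fold changes of the pair in Au_TCPP against Control stood at 1.15 and 18.7.

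**Figure D1:**
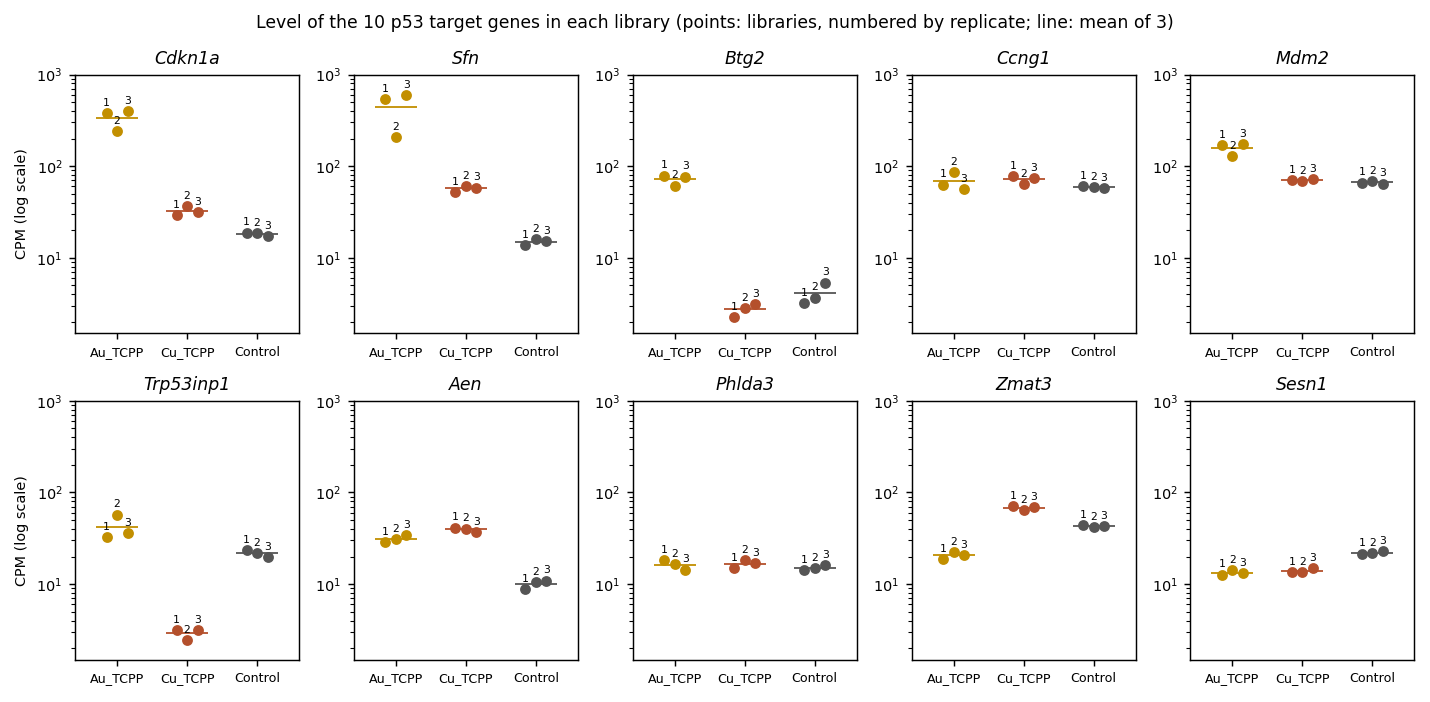
Level of each of the 10 genes in each library, as TMM-scaled CPM on a log axis. Points are libraries numbered by replicate, grouped as Au_TCPP, Cu_TCPP and Control from left to right, and lines are means of 3. Cdkn1a and Sfn step down from Au_TCPP through Cu_TCPP to Control, Trp53inp1 is lowest in Cu_TCPP at 2.44 to 3.18 CPM, and Zmat3 is lowest in Au_TCPP at 18.7 to 22.4 CPM.

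Among the genes that act back on p53 or on cell death, Mdm2 rose with the gold-bearing material. Mdm2 (chromosome 10, 117688875 to 117710758) had 171, 128 and 174 CPM in Au_TCPP, 70.3, 69.0 and 72.2 CPM in Cu_TCPP and 66.1, 68.8 and 64.6 CPM in Control. All Au_TCPP libraries lay above all others, while Cu_TCPP and Control were close together without overlapping. Mdm2 was 2.37-fold higher in Au_TCPP than in Control (log2 fold change 1.25 ± 0.11 SE, edgeR adjusted p = 9.8e-08) and 2.24-fold higher than in Cu_TCPP (edgeR adjusted p = 2.1e-07). For Cu_TCPP against Control the 95% interval of the log2 fold change was -0.14 to 0.31 (edgeR adjusted p = 0.56).

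Trp53inp1 encodes a stress protein of the nucleus and of autophagosomes that promotes p53 activity and cell death. Trp53inp1 (chromosome 4, 11156431 to 11174379) had 32.3, 57.3 and 35.98 CPM in Au_TCPP, 3.18, 2.44 and 3.16 CPM in Cu_TCPP and 23.3, 21.8 and 19.8 CPM in Control. It went opposite ways with the materials: the Cu_TCPP libraries lay far below Control and the Au_TCPP libraries above it. The level fell by 2.89 ± 0.22 SE on the log2 scale in Cu_TCPP against Control, which is 7.40-fold lower (edgeR adjusted p = 7.3e-07). In Au_TCPP it was 1.93-fold higher than in Control (edgeR adjusted p = 0.00029), with a log2 fold change of 0.95, or 0.63 without Au_TCPP replicate 2, the highest library. Between the materials it was 14.3-fold higher in Au_TCPP than in Cu_TCPP (edgeR adjusted p = 3.8e-09).

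Aen encodes a nuclease that degrades nuclear DNA in apoptosis. Aen (chromosome 7, 78895854 to 78911209) had 28.9, 30.9 and 34.5 CPM in Au_TCPP, 41.5, 40.3 and 36.6 CPM in Cu_TCPP and 8.84, 10.6 and 10.9 CPM in Control. Every treated library lay above every Control library, and the Cu_TCPP libraries lay above the Au_TCPP libraries. Aen was 3.11-fold higher in Au_TCPP than in Control (edgeR adjusted p = 1.5e-08) and 3.90-fold higher in Cu_TCPP than in Control (edgeR adjusted p = 4.9e-08). The difference between the materials was small, -0.33 ± 0.11 SE on the log2 scale for Au_TCPP against Cu_TCPP (edgeR adjusted p = 0.014), and was -0.20 with offsets for gene length (adjusted p = 0.11).

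Phlda3 encodes a small protein that competes with the kinase Akt for membrane lipids and so restrains survival signalling. It had 18.1, 16.4 and 14.4 CPM in Au_TCPP, 14.97, 18.2 and 16.8 CPM in Cu_TCPP and 14.3, 14.8 and 16.2 CPM in Control. All groups overlapped and no comparison called it. The 95% interval of its log2 fold change was -0.16 to 0.38 for Au_TCPP against Control and -0.12 to 0.40 for Cu_TCPP against Control (edgeR adjusted p = 0.44 and 0.38).

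The remaining pair, an RNA-binding protein and a metabolic sensor, fell with Au_TCPP. Zmat3 encodes a zinc finger protein that binds RNA and regulates splicing and mRNA stability. Zmat3 (chromosome 3, 32334792 to 32366014) had 18.7, 22.4 and 20.9 CPM in Au_TCPP, 70.8, 63.9 and 68.7 CPM in Cu_TCPP and 44.1, 42.1 and 42.8 CPM in Control. The groups were tight and did not overlap, with Cu_TCPP above and Au_TCPP below Control. Zmat3 was 2.08-fold lower in Au_TCPP than in Control (log2 fold change -1.06 ± 0.09 SE, edgeR adjusted p = 1.4e-07) and 1.58-fold higher in Cu_TCPP than in Control (edgeR adjusted p = 4.8e-05). It was 3.28-fold lower in Au_TCPP than in Cu_TCPP (edgeR adjusted p = 1.3e-09). With 11435 nt it is the longest of the 10 genes, and with offsets for gene length its log2 fold change in Au_TCPP against Control was -0.64, still called.

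Sesn1 encodes a sestrin, which restrains the growth kinase complex mTORC1. Sesn1 had 12.7, 14.1 and 13.2 CPM in Au_TCPP, 13.4, 13.6 and 15.1 CPM in Cu_TCPP and 21.5, 21.8 and 22.8 CPM in Control. All treated libraries lay below all Control libraries, and the treated groups overlapped each other. Sesn1 was 1.65-fold lower in Au_TCPP than in Control (edgeR adjusted p = 3.1e-05) and 1.57-fold lower in Cu_TCPP than in Control (edgeR adjusted p = 0.00026). For Au_TCPP against Cu_TCPP the 95% interval of the log2 fold change was -0.31 to 0.16 (edgeR adjusted p = 0.58).

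**Figure D2:**
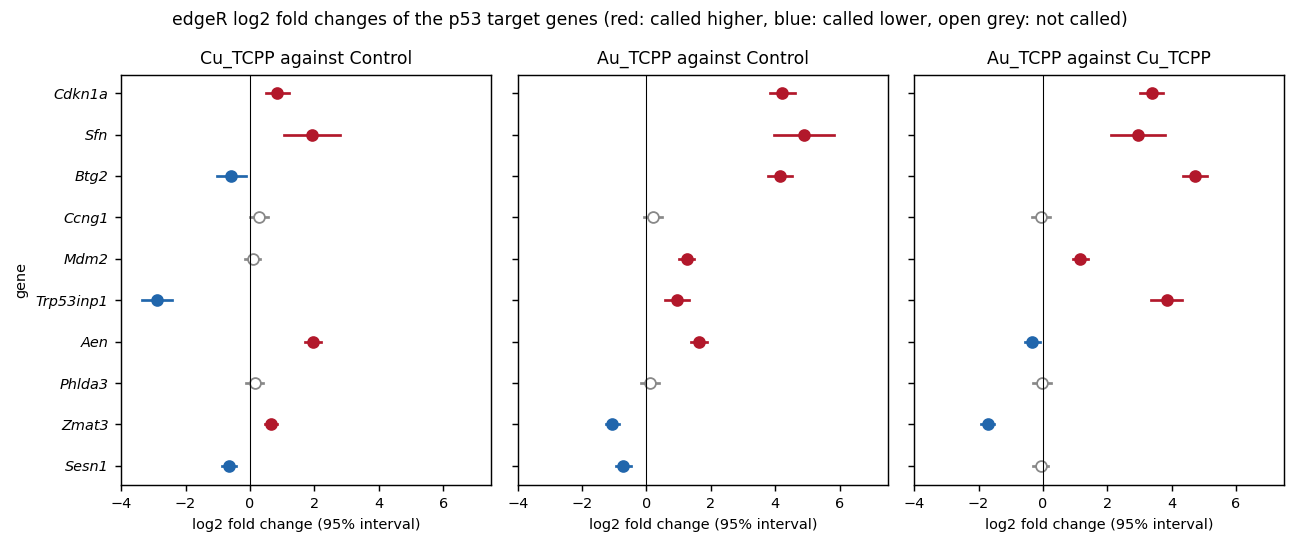
edgeR log2 fold changes of the 10 genes in the 3 comparisons, with 95% intervals. Red points were called higher, blue lower, and open grey points were not called. Au_TCPP against Control runs from -1.06 for Zmat3 to 4.90 for Sfn, and Trp53inp1 and Zmat3 lie on opposite sides of 0 with the 2 materials.

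Counted over the group, 6 of 10 genes rose and 2 fell in Au_TCPP against Control, where 69.1% of all genes tested were called, 34.4% higher and 34.7% lower. The median log2 fold change was 1.10 over the 10 genes and -0.01 over all genes tested. In Cu_TCPP against Control 4 of 10 rose and 3 fell, where 40.4% of all genes tested were called, 19.2% higher and 21.2% lower, with a median of 0.21 against -0.01 over all genes. In Au_TCPP against Cu_TCPP 5 were called higher and 2 lower, where 65.9% of all genes tested were called, 34.6% higher and 31.3% lower, with medians of 0.57 and 0.04. The libraries of the groups did not overlap for 8 of the 10 genes in Au_TCPP against Control (71.9% of all genes tested), 9 in Cu_TCPP against Control (59.4%) and 7 in Au_TCPP against Cu_TCPP (67.0%). These shares of separated genes are high throughout the transcriptome, so separation alone says little of these 10. The comparisons share libraries, so their counts are not independent.

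Among themselves, the 10 genes changed order. Per length, as the deposited FPKM, the highest in Control were Ccng1 at 16.6 ± 0.395, Mdm2 at 12.8 ± 0.386, Phlda3 at 9.51 ± 0.66 and Sfn at 9.10 ± 0.68 FPKM (SD, n = 3), the last 2 of which lay within their spread of each other. In Au_TCPP the highest were Sfn at 270 ± 129 and Cdkn1a at 93.3 ± 23.7 FPKM, followed by Mdm2 at 30.3 ± 5.17 and Btg2 at 25.7 ± 3.57 FPKM, which lay within their spread of each other. In Cu_TCPP Sfn led at 35.7 ± 2.9 FPKM, followed by Ccng1 at 20.5 ± 2.18 and Mdm2 at 13.9 ± 0.333 FPKM. Btg2 in Control, at 1.46 ± 0.414 FPKM, and Trp53inp1 in Cu_TCPP, at 0.455 ± 0.0655 FPKM, were the lowest of their groups, though Aen in Control, at 1.71 ± 0.196 FPKM, lay within the spread of Btg2.

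The genes whose pattern over the 9 libraries was most like that of Cdkn1a were Banp, Rhob, Basp1, Hspb8 and Mrps6. Their Pearson correlations of log2 CPM with Cdkn1a lay between 0.998 and 0.999 over 9 libraries and were the highest among 9682 genes. The 9 libraries fall into 3 groups and share the shift of Au_TCPP, so the correlation describes likeness only. Hspb8, a small heat shock protein, averaged 1180.3 ± 268 CPM in Au_TCPP, 99.5 ± 4.41 CPM in Cu_TCPP and 60.9 ± 1.08 CPM in Control. Rhob, a small GTPase, averaged 171 ± 20.9 CPM in Au_TCPP, 51.1 ± 5.42 CPM in Cu_TCPP and 36.3 ± 0.329 CPM in Control. In both, as in Cdkn1a, Au_TCPP replicate 2 was the lowest of its group, at 891 CPM for Hspb8 and 148 CPM for Rhob. Picking genes by correlation over these same libraries favours such a likeness, so it adds nothing to the correlation.

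Trp53, the gene of p53 itself (chromosome 11, 69580359 to 69591873), was transcribed in all libraries. Trp53 had 112, 77.7 and 116 CPM in Au_TCPP, 34.0, 34.5 and 32.4 CPM in Cu_TCPP and 31.2, 34.1 and 32.4 CPM in Control. The Au_TCPP libraries lay apart from the rest, and Cu_TCPP and Control overlapped. Trp53 was 3.12-fold higher in Au_TCPP than in Control (edgeR adjusted p = 3.6e-08), and for Cu_TCPP against Control the 95% interval of its log2 fold change was -0.23 to 0.32 (edgeR adjusted p = 0.8). Gene counts do not show whether the transcript encodes a working protein. The paralogs Trp63 and Trp73, which can bind the same DNA sites, were too low to be tested: Trp63 had at most 2 counts in any library and Trp73 had 0 in all.

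Of 35 other known p53 targets, 29 were tested. In Au_TCPP against Control 11 rose, 10 fell and 8 missed the threshold, at a median log2 fold change of 0.06 against -0.01 over all genes. Their shares are near those of all genes tested, of which 34.4% were called higher and 34.7% lower. Sesn2, a sestrin, was 5.35-fold higher in Au_TCPP than in Control and 1.48-fold higher in Cu_TCPP than in Control, the reverse of its relative Sesn1. Gadd45a, a stress protein that binds PCNA and p21, averaged 286 ± 43.7 CPM in Au_TCPP, 20.1 ± 3.7 CPM in Cu_TCPP and 47.9 ± 3.47 CPM in Control (SD, n = 3), so that it rose with the gold-bearing material and fell with the copper one (edgeR adjusted p = 9.2e-10 and 1.1e-05). Plk2, a polo-like kinase, did the same, 3.81-fold higher in Au_TCPP than in Control and 1.64-fold lower in Cu_TCPP than in Control. Pml, which forms nuclear bodies, fell in both, to 39.5 ± 1.38 CPM in Au_TCPP and 56.1 ± 1.75 CPM in Cu_TCPP against 93.3 ± 3.73 CPM in Control.

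In Cu_TCPP against Control 6 of these 29 targets rose, 12 fell and 11 missed the threshold (median -0.07), where 19.2% of all genes tested were called higher and 21.2% lower. Without Au_TCPP replicate 2, which enters the spread of that fit, 10 rose and 12 fell. Calls over the whole table also change when a library is left out, and the shares given are of the fit with all libraries. Fas, a death receptor, averaged 18.9 ± 3.51 CPM in Au_TCPP, 3.18 ± 0.325 CPM in Cu_TCPP and 13.8 ± 0.859 CPM in Control, and was 5.95-fold higher in Au_TCPP than in Cu_TCPP (edgeR adjusted p = 6.4e-09). In Au_TCPP against Cu_TCPP 14 of these 29 targets were called higher, 7 lower and 8 were not called (median 0.01). Over all genes tested 34.6% were called higher and 31.3% lower (median 0.04). With library totals alone the counts became 9 higher and 14 lower, on a scale where the median over all genes was -0.33. Among the apoptosis genes, which were picked after their values were seen, Bax, a pore-forming BCL2 family protein, was 1.89-fold higher in Au_TCPP than in Control. Bax was not called in Cu_TCPP against Control (edgeR adjusted p = 0.31). Bbc3, which encodes PUMA, was 1.36-fold lower in Au_TCPP than in Control and 1.93-fold lower in Cu_TCPP than in Control. Pmaip1, which encodes NOXA, had at most 1 count in any library.

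Among 20 regulators of p53 tested, 4 rose, 12 fell and 4 missed the threshold in Au_TCPP against Control (median -0.39), where 34.4% of all genes tested were called higher and 34.7% lower. Huwe1, a very large ubiquitin ligase, fell to 213 ± 18.8 CPM in Au_TCPP, against 552 ± 13.9 CPM in Control, and the acetyltransferase gene Ep300 was 2.04-fold lower in Au_TCPP than in Control. The ribosomal protein genes Rpl5 and Rpl11, whose products bind Mdm2, were 2.48-fold and 2.24-fold higher in Au_TCPP than in Control, though genes of this kind have many pseudogene copies, and reads shared with them were not measured, so both values are uncertain. These regulators are long genes, with a median length of 9587 nt against 3861 nt over all genes tested, and with offsets for gene length 7 rose and 7 fell. With library totals alone 2 rose and 15 fell. In Cu_TCPP against Control 5 rose, 1 fell and 14 missed the threshold (median 0.03), where 19.2% of all genes tested were called higher and 21.2% lower. Hipk2, a kinase that phosphorylates p53, was 1.67-fold higher and Rchy1, a ubiquitin ligase of p53, was 1.52-fold lower in Cu_TCPP than in Control. Setd7, a methyltransferase, and Usp7, which removes ubiquitin from p53 and Mdm2, were 1.43-fold and 1.31-fold higher in Cu_TCPP than in Control. In Au_TCPP against Cu_TCPP 3 were higher and 12 lower (median -0.51 against 0.04 over all genes). Over all genes tested 34.6% were called higher and 31.3% lower in that comparison. Counts with offsets for gene length are not given for it. Cdkn2a, whose ARF product restrains Mdm2, had 0 counts in all 9 libraries.

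The genes through which p21 acts were taken as cyclins, their kinases, pocket proteins and E2F factors, with Pcna and the p21 relative Cdkn1b. In Au_TCPP against Control 6 of 17 tested rose, 8 fell and 3 missed the threshold (median -0.18), or 3 rose and 10 fell with library totals alone. Over all genes tested 34.4% were called higher and 34.7% lower, so the share that rose is near that of all genes. Ccnd1, which encodes cyclin D1, averaged 190.4 ± 5.15 CPM in Au_TCPP, 891 ± 14.8 CPM in Cu_TCPP and 515 ± 18.6 CPM in Control, below Control with one material and above it with the other (edgeR adjusted p = 1.5e-09 and 4.1e-06). Pcna, the replication clamp that p21 binds, was 2.64-fold higher in Au_TCPP than in Control. Cdk6 was 1.78-fold and Ccna2, which encodes cyclin A2, was 1.93-fold lower in Au_TCPP than in Control. In Cu_TCPP against Control 10 of the 17 rose, 2 fell and 5 missed the threshold (median 0.31), where 19.2% of all genes tested were called higher and 21.2% lower. E2f4 was 1.93-fold and Ccne2, which encodes cyclin E2, was 2.30-fold higher in Cu_TCPP than in Control. In Au_TCPP against Cu_TCPP 4 were higher and 10 lower (median -0.37), where 34.6% of all genes tested were called higher and 31.3% lower. With library totals alone the counts were 1 and 13, on a scale where the median over all genes was -0.33. Rbl1, which encodes the pocket protein p107, was 1.96-fold lower and E2f4 2.78-fold lower in Au_TCPP than in Cu_TCPP.

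Most of the listed mitotic genes that p53 is known to repress through p21 and the DREAM complex fell with Au_TCPP, where Cdkn1a was highest. Of 18 tested, 0 rose, 16 fell and 2 missed the threshold in Au_TCPP against Control, at a median of -1.12 against -0.01 over all genes, where 34.7% of all genes tested were called lower. Plk1, the polo-like kinase of mitosis, had 37.8, 27.1 and 30.3 CPM in Au_TCPP, 142, 159 and 152 CPM in Cu_TCPP and 143, 136 and 134 CPM in Control. Ccnb1, which encodes cyclin B1, had 68.4, 66.8 and 62.8 CPM in Au_TCPP, 216, 207 and 213 CPM in Cu_TCPP and 192, 199.7 and 188 CPM in Control. The Au_TCPP libraries of both genes lay apart from the rest. Cdc25b, a phosphatase that activates mitotic kinases, was 2.69-fold lower and the lamin gene Lmnb1 2.36-fold lower in Au_TCPP than in Control. Bub1 and Aurka were the 2 that missed the threshold. These counts depend on which genes were listed. Cdk1, a mitotic kinase gene counted with the p21 partners and not here, averaged 206 ± 19.4 CPM in Au_TCPP and 206 ± 2.47 CPM in Control and was not called. Ccna2, also counted there, was 1.93-fold lower. Without Au_TCPP replicate 2, or with offsets for gene length, 1 gene rose and 16 fell.

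In Cu_TCPP, where Cdkn1a also rose, 5 of these 18 genes rose, 3 fell and 10 missed the threshold, at a median of 0.20 against -0.01 over all genes, where 19.2% of all genes tested were called higher and 21.2% lower. Without Au_TCPP replicate 2 in the fit, 11 rose and 4 fell, and with offsets for gene length 8 rose and 2 fell. The shares over all genes given here are not of those fits. The number of genes called over the whole table also changes between fits, and whether these counts single out mitotic genes was not tested. Mybl2, a transcription factor of mitotic genes, was 1.56-fold higher and Cenpf, a kinetochore gene, 1.40-fold higher in Cu_TCPP than in Control, while Cdc25b was 1.57-fold and Cdc25c 1.34-fold lower. Set directly against each other, 0 of the 18 were higher and 16 lower in Au_TCPP than in Cu_TCPP, with a median of -1.11 against 0.04 over all genes (31.3% of all genes tested were called lower). Plk1 was 4.76-fold and Cenpf 3.82-fold lower in Au_TCPP than in Cu_TCPP. Whether the level of Cdkn1a has a part in these differences was not tested.

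**Figure D3:**
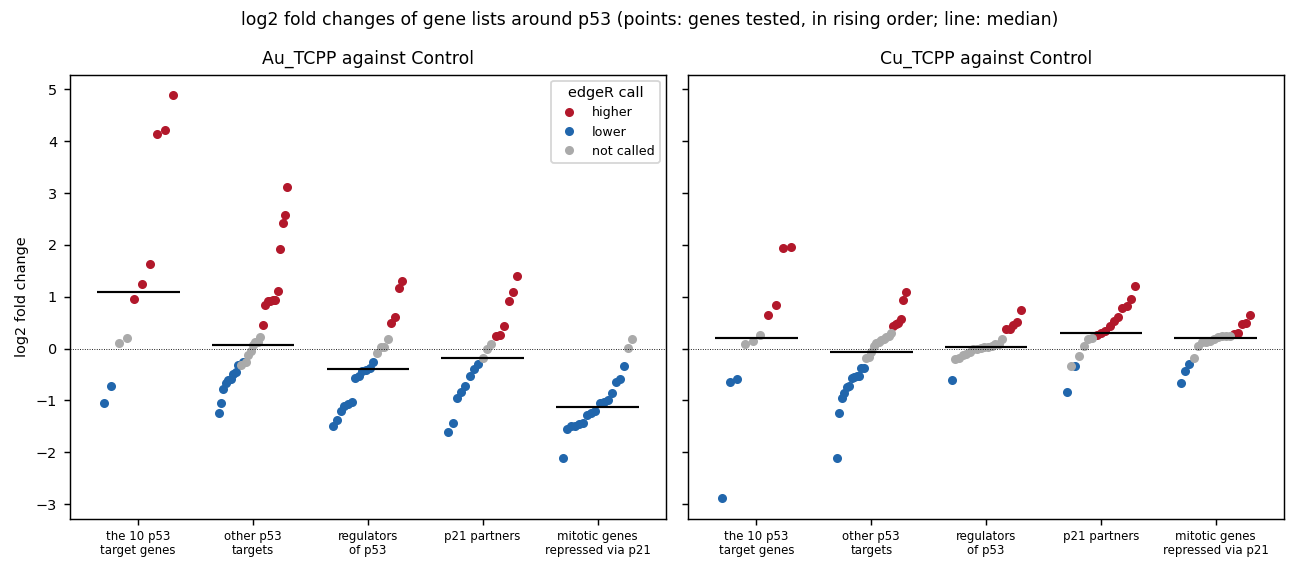
log2 fold changes of the 10 genes and of 4 gene lists around p53, for Au_TCPP against Control on the left and Cu_TCPP against Control on the right. Each point is a gene tested, in rising order, coloured by its edgeR call, and the line is the median. The mitotic genes have a median of -1.12 with Au_TCPP and 0.20 with Cu_TCPP.

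Paralogs, the related genes of the same families, were set beside the p53 targets. Of 20 paralogs tested, 14 rose, 3 fell and 3 missed the threshold in Au_TCPP against Control (median 1.05), and 10 rose, 5 fell and 5 missed the threshold in Cu_TCPP against Control (median 0.27). Over all genes tested 34.4% were called higher and 34.7% lower in Au_TCPP against Control, and 19.2% and 21.2% in Cu_TCPP against Control. In Au_TCPP against Cu_TCPP 15 were higher and 2 lower (median 0.93 against 0.04 over all genes), where 34.6% of all genes tested were called higher and 31.3% lower. With library totals alone 6 fell in Au_TCPP against Control. The relatives of Btg2 rose with it in Au_TCPP: Btg1 averaged 939 ± 28.7 CPM in Au_TCPP, 172 ± 1.11 CPM in Cu_TCPP and 247 ± 13.1 CPM in Control, and Tob1 was 3.49-fold higher in Au_TCPP than in Control. Phlda1 was 12.8-fold higher in Au_TCPP than in Control (edgeR adjusted p = 2.1e-10), beside a Phlda3 that no comparison called. Ccng2, which encodes cyclin G2, averaged 191 ± 5.93 CPM in Au_TCPP, 48.5 ± 1.91 CPM in Cu_TCPP and 94.4 ± 3.53 CPM in Control, and was called in all 3 comparisons.

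Sesn3, a further sestrin, fell as Sesn1 did, to 24.7 ± 6.36 CPM in Au_TCPP and 18.6 ± 0.397 CPM in Cu_TCPP against 44.3 ± 1.65 CPM in Control. Trp53inp2 was 2.24-fold lower in Cu_TCPP than in Control, on the same side as Trp53inp1, and for Au_TCPP against Control it averaged 21.8 ± 0.446 and 24.3 ± 2.33 CPM and was not called. Cdkn1b, which encodes the p21 relative p27, was 1.79-fold lower in Cu_TCPP than in Control, where Cdkn1a was higher, and averaged 131 ± 26.6 CPM in Au_TCPP and 149 ± 2.62 CPM in Control without a call. Isg20, a relative of Aen named after its values were seen, was higher as Aen was in both comparisons, 2.35-fold in Au_TCPP against Control (edgeR adjusted p = 2e-07) and 1.30-fold in Cu_TCPP against Control (edgeR adjusted p = 0.015). Isg20l2, a further relative, was 1.64-fold higher in Cu_TCPP than in Control, as Aen was, and 1.31-fold lower in Au_TCPP than in Control, where Aen was higher. Mdm4, the partner of Mdm2, named with Ywhag after their values were seen, was lower in Au_TCPP than in Control by a log2 fold change of -0.26 (edgeR adjusted p = 0.026). Of 6 other 14-3-3 genes, Ywhag moved furthest in Au_TCPP against Control, 4.17-fold higher, against 29.8-fold for Sfn. Some 14-3-3 genes have processed pseudogenes, and reads shared with them were not measured, so these values are uncertain.

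**Figure D4:**
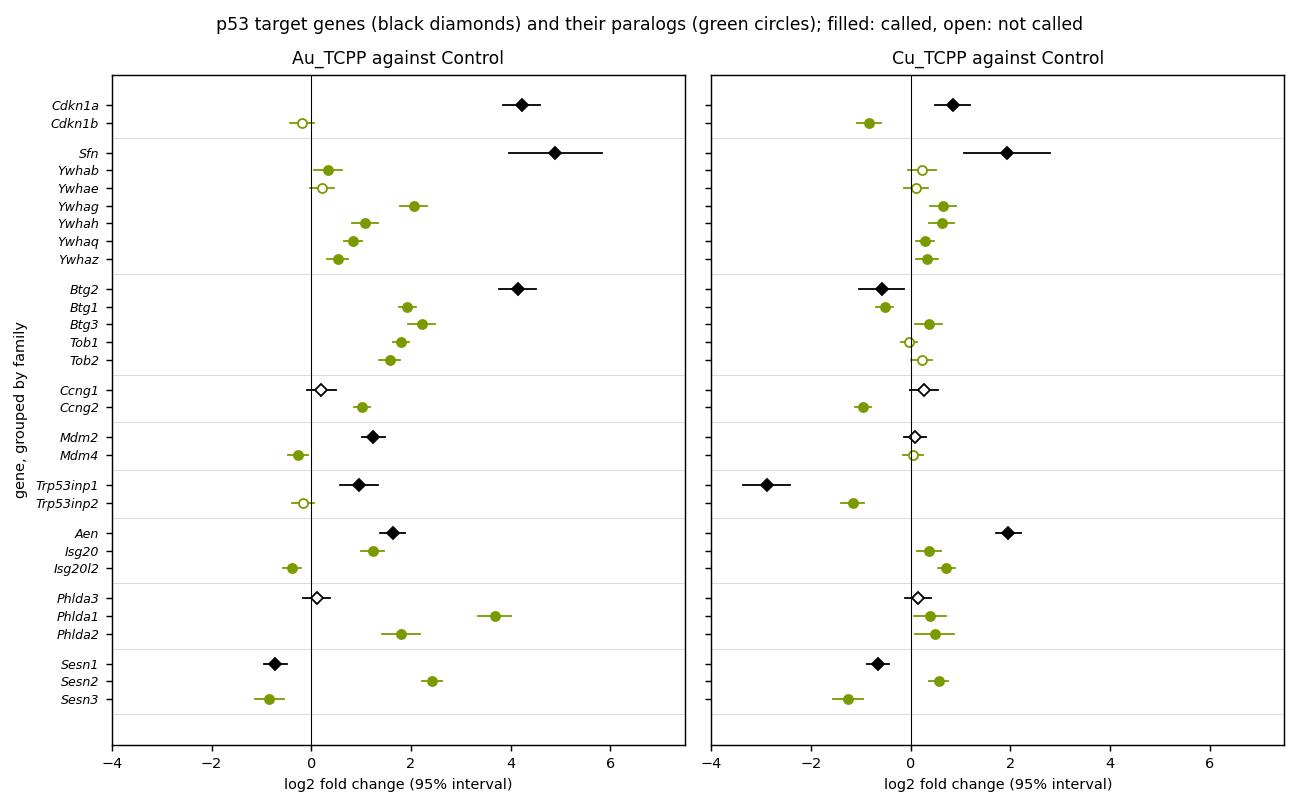
log2 fold changes with 95% intervals of the p53 target genes (black diamonds) and their paralogs (green circles), by family, for Au_TCPP against Control on the left and Cu_TCPP against Control on the right. Filled symbols were called and open ones were not. Phlda1 stands at 3.68 beside Phlda3 at 0.11, and Sesn2 at 2.42 beside Sesn1 at -0.72, with Au_TCPP.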

How the data were processed

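Polyadenylated RNA of 9 libraries of 4T1 cells went into libraries made with a QIAGEN single-cell kit, per the labels' protocols, and the series names an Illumina HiSeq2000. Groups follow the titles. The submitters' processing notes name mm10, Bowtie 0.12.9, Cufflinks 2.1.1 and HTSeq, without roles, and do not say whether counting used strand. The table holds raw read counts per gene, which the authors did not normalize, per the file headers. It also holds FPKM, a unit the authors took per gene length and library total, per the file headers. FPKM were used only to set genes beside each other and in 2 alternatives, which therefore do not test scaling by library totals.

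Counts were tested with edgeR 4.0.16 (R 4.3.3), by the robust quasi-likelihood F test. The model had 1 mean for each group and took in all 9 libraries, TMM scaling and the filterByExpr filter. P-values of the 13915 genes kept were adjusted by Benjamini and Hochberg's method, and a gene with adjusted p under 0.05 is called. CPM use TMM-scaled library totals. Standard errors are the absolute log2 fold change divided by the square root of F, and 95% intervals use the t distribution with the fit's degrees of freedom. On simulated counts for 13915 genes, the fit recovered 92%, 83% and 86% of 2-fold changes. These are for Cu_TCPP against Control, Au_TCPP against Control and Au_TCPP against Cu_TCPP, in that order. There were 4, 10 and 7 false among 164, 151 and 163 calls. Few genes were changed, so this does not test the scaling. The counts were drawn with the same spread for all genes and groups, so genes and groups with a wider spread are not covered.

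The members, the gene lists, the rule for named genes and the alternatives were chosen with earlier results of these data known. The rule names the 10 members, Trp53, Trp63 and Trp73, the 4 called genes of smallest p in each list and comparison (or, with none called, the most abundant), and the 5 genes most correlated with Cdkn1a. Other genes named were chosen after their values were seen. Alternatives were RLE factors, library totals alone, other filters, DESeq2 1.42.0, limma 3.58.1 on log2 FPKM with pseudocounts of 1 and 0.1, only the 6 libraries of a comparison, a replicate block, offsets for gene length and leaving out each library; the list counts under 3 of these were added after seeing the data. Promoter sequences are RefSeq's for GRCm38.p6, the build also called mm10.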

Additional observations from a re-analysis of the deposited data

How the results depend on the processing

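Of 570 recomputed values of the 10 genes (30 results under 19 alternatives each), 546 kept their direction and side of the threshold, 9 lost the call, 9 gained one and 6 changed sign; 22 of the 30 results kept both throughout. The 6 changes of sign are all of Ccng1 and Phlda3, which had no call. With library totals alone, Au_TCPP against Control gave -0.21 for Ccng1 and -0.31 for Phlda3, and the genes lower in Au_TCPP than in Cu_TCPP were 5 in place of 2, since Ccng1, Phlda3 and Sesn1 joined (-0.43, -0.40 and -0.44); that scale moves all genes of Au_TCPP down. With offsets for gene length Phlda3 gave -0.19 for Au_TCPP against Control; the cause was not tested. Leaving out 1 library, the log2 fold change of Ccng1 ranged between -0.028 and 0.30 in Au_TCPP against Control, and in Au_TCPP against Cu_TCPP it ranged between -0.31 and 0.018. That of Phlda3 in Au_TCPP against Cu_TCPP ranged between -0.15 and 0.0063. Also with 1 library left out, the genes called over the whole table ranged from 4226 to 7179 for Cu_TCPP against Control, from 8859 to 10109 for Au_TCPP against Control, and in Au_TCPP against Cu_TCPP from 8521 to 9622. The alternatives for the other gene lists were chosen after seeing the data.

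Samples with the same replicate number did not deviate together: their correlations lay between -0.08 and 0.14 over 9 pairs, against -0.12 to 0.08 for other pairs. With the replicate block 9505 genes were called in Au_TCPP against Control, 5508 in Cu_TCPP against Control and 9059 between the 2 materials, and no call among the 10 genes changed. Btg2 had 40 to 98 counts per Control or Cu_TCPP library. Its Control replicate 3, at 5.37 CPM, lay above replicates 1 and 2, at 3.22 and 3.67 CPM. Whether depth or this spread makes its call in Cu_TCPP against Control unstable was not tested.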
